A study of Capra hircus with 4 samples.

Results

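The genes described here were 10 of the 13 protein-coding genes of the goat mitochondrial genome: ND1, ND2, ND3, ND4, ND4L, ND5 and ND6, which encode subunits of complex I, CYTB of complex III, and COX1 and COX3 of complex IV. They were found by name among the 28944 features of the count matrices, once the prefix that the matrices put before gene symbols had been removed. The other 3 genes, COX2 of complex IV and ATP6 and ATP8 of the ATP synthase, were left out because 1 library held almost no counts of them, and their values are given below as a description. The data were single-nucleus RNA-seq libraries of ovaries from 2 Du'an goats, the monotocous group selected for a litter size of 1, and 2 Nubian goats, the polytocous group with litters of at least 3. All 4 goats were about 3 years old, and estrus had been synchronised in all of them with an intravaginal device releasing 300 mg of progesterone for 17 days and with no hormone that induces superovulation. Each library was 1 goat, breed and litter size changed together, and a p-value between breeds therefore rested on 2 animals against 2.

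The mitochondrial genome is a small circular DNA kept in many copies per cell. It is transcribed by its own RNA polymerase into long precursors from both strands, which are cut at the tRNAs that lie between most genes, and ND6 is the protein gene read from the opposite strand to the others. The proteins it encodes join many nuclear-encoded subunits in the respiratory complexes of the inner membrane. In the ovary, mitochondria also hold the enzyme that begins steroid synthesis from cholesterol. The transcripts are made and kept outside the nucleus, so that in a preparation of nuclei they are counted only as far as RNA from outside the nucleus enters the droplets. A share of unique molecular identifiers (UMIs, each counting 1 captured RNA molecule) in such data is not a level per whole cell.

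The 4 libraries held 48332 barcodes with 40573246 to 71613892 UMIs each, and 44872 nuclei were kept after limits on UMIs, on genes detected and on mitochondrial UMIs. Nuclei were clustered on nuclear-encoded genes alone, and 31731 of them fell into 12 classes that carried the markers of a cell type and are called granulosa-like, macrophage-like and so on. No oocyte-like or B-like cluster was found. Of the 4 clusters of granulosa-like nuclei, cluster 3 came mostly from Nubian replicate 1 (5796 of 5942 nuclei) and cluster 10 mostly from Du'an replicate 2 (1428 of 2001), and 555 of 600 fibroblast-like nuclei came from Nubian replicate 1. Clusters 3 and 10, both with CYP19A1 among their leading genes, held 0 nuclei of Du'an replicate 1. Clusters 2, 6, 7 and 9 stayed unnamed. Cluster 2, with 6101 nuclei, had 8 of 8 smooth muscle markers up but was left unnamed for its low depth and for no marker among its top 10 genes. The 3091 smooth muscle-like nuclei therefore leave out shallower nuclei with these markers. At a coarser clustering the smooth muscle-like class held 9115 nuclei. Between 54 and 131 barcodes were shared by each of the 6 pairs of libraries, and Scrublet called 0 doublets in all 4, so doublets were not removed.

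Over all kept nuclei the 10 genes took 1.58% of UMIs. COX3 had the highest level per length, at 7022 ± 2762 CPM (UMIs of a gene scaled to 1000000 UMIs) per kilobase (SD, n = 4), followed by CYTB at 2937 ± 959.5, ND3 at 2035 ± 1001, ND4 at 1668 ± 491.3 and ND2 at 1312 ± 600.6. ND1 stood at 968.1 ± 334.4, COX1 at 289.5 ± 106.3, ND4L at 225.8 ± 101.7, ND5 at 163.3 ± 47.5 and ND6 at 31.6 ± 13.4 CPM per kilobase. In each of the 4 libraries COX3 was highest per length, CYTB came next and ND6 was lowest. Each UMI counts 1 molecule whatever the length of its gene, so division by length raises short genes such as ND3. Undivided, the means were 5505 CPM for COX3, 3348 for CYTB, 2299 for ND4, 1367 for ND2, 925.5 for ND1 and 704.0 for ND3. ND3 was above ND2 per length in each of the 4 libraries but below it in CPM in each. Per length, the place of ND4 varied. It was above ND3 only in Nubian replicate 2 (1939 against 1756 CPM per kilobase). It was below ND2 only in Du'an replicate 2 (1896 against 2081 CPM per kilobase).

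**Figure D1:**
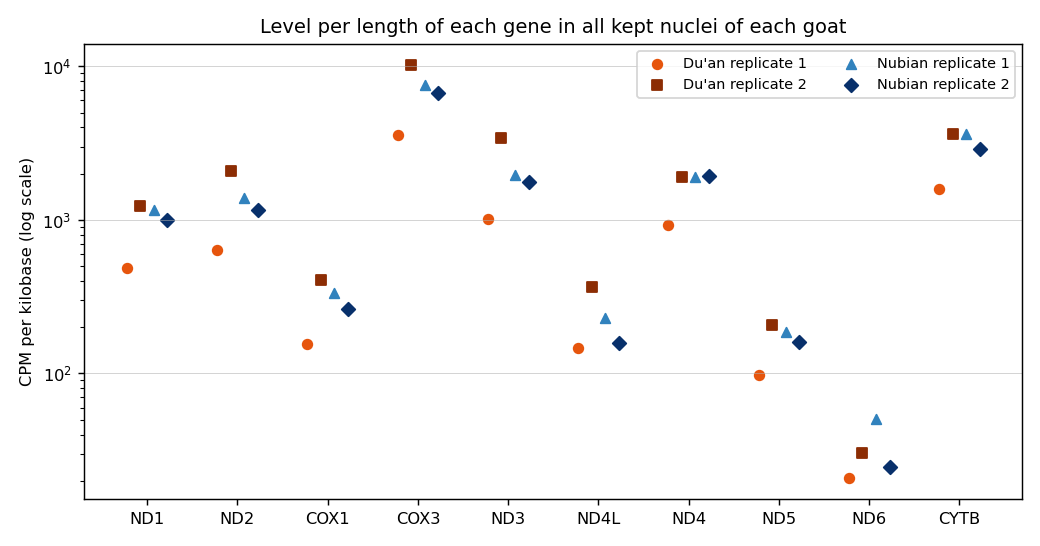
Level of each of the 10 genes in all kept nuclei of each goat, in CPM per kilobase of gene on a log axis; each point is 1 goat, orange and brown for Du'an and blue for Nubian. COX3 is highest in every goat and ND6 lowest, and Du'an replicate 1 is the lowest point for every gene.

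The goats differed in the total more than in the mix. COX3 stood at 2781 CPM in Du'an replicate 1, 8034 in Du'an replicate 2, 5947 in Nubian replicate 1 and 5260 in Nubian replicate 2. ND4 stood at 1284 CPM in Du'an replicate 1, 2613 in Du'an replicate 2, 2627 in Nubian replicate 1 and 2672 in Nubian replicate 2. CYTB, which encodes the cytochrome b of complex III, stood at 1813, 4148, 4117 and 3314 CPM in the same order. Du'an replicate 1 was the lowest library for all 3 genes, and the 2 Du'an goats lay at opposite ends for COX3. As a share of the UMIs of the 10 genes, COX3 made up 36.4 ± 1.91% (SD, n = 4), CYTB 22.6 ± 1.73% and ND4 15.7 ± 2.22%. ND2 made up 8.93 ± 1.13%, ND1 6.18 ± 0.371%, ND3 4.60 ± 0.802%, COX1 2.99 ± 0.168%, ND5 2.03 ± 0.181%, ND4L 0.454 ± 0.112% and ND6 0.116 ± 0.0395%. The mix of Du'an replicate 2 held more COX3 (39.3%) and ND2 (10.6%) and less ND4 (12.8%) and CYTB (20.3%) than that of any other library, whose values ran from 35.3 to 35.6%, 8.17 to 8.52%, 15.6 to 18.1% and 22.4 to 24.4%.

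Which cell types carried these transcripts was the main question. Among nuclei with at most 20% mitochondrial UMIs, T or natural killer-like nuclei had the highest mean share of the named classes, 4.13 ± 0.342% of their UMIs (SD, n = 4). Granulosa-like nuclei had the lowest, 1.00 ± 0.359%. Blood endothelial-like nuclei had 3.59 ± 0.861%, macrophage-like nuclei 3.32 ± 0.793% and epithelial-like nuclei 2.94 ± 1.69%. Lymphatic endothelial-like nuclei had 2.47 ± 0.901%, theca-like nuclei 2.35 ± 1.25%, progenitor-side granulosa-like nuclei 1.69 ± 1.04%, pericyte-like nuclei 1.61 ± 0.803% and smooth muscle-like nuclei 1.39 ± 0.490%. Ciliated-like nuclei (3.38%) and fibroblast-like nuclei (2.38%) reached 20 nuclei in only 2 goats. Of the unnamed clusters, cluster 9 stood at 4.39 ± 1.10%, cluster 7 at 3.20%, cluster 2 at 1.99% and cluster 6, the lowest of all, at 0.610%.

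**Figure D2:**
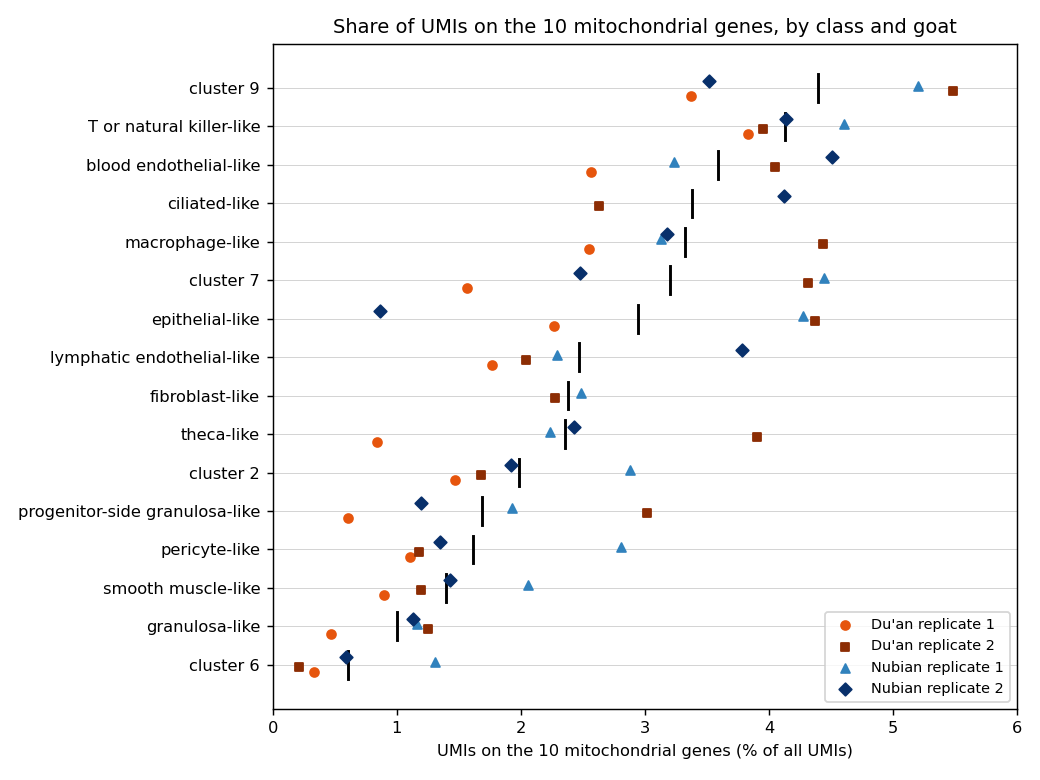
Share of all UMIs on the 10 genes in each class or unnamed cluster (percent), 1 point for each goat with at least 20 nuclei there and a black bar at the mean over goats. T or natural killer-like nuclei lie between 3.83 and 4.61% in all 4 goats and granulosa-like nuclei between 0.469 and 1.25%, while progenitor-side granulosa-like, theca-like and epithelial-like nuclei spread widely between goats.

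In T or natural killer-like nuclei, marked by CD3E and IL7R, the share was 3.83% in Du'an replicate 1, 3.95% in Du'an replicate 2, 4.61% in Nubian replicate 1 and 4.14% in Nubian replicate 2. Granulosa-like nuclei, the hormone-producing cells around the oocyte, had 7 of 10 granulosa markers up in cluster 1 and 6 in clusters 3, 10 and 12. Their share was 0.469%, 1.25%, 1.16% and 1.13% in that order. Granulosa-like nuclei of Du'an replicate 1 came from clusters 1 and 12 alone, so the goats did not hold the same mix of granulosa-like clusters. CYP19A1 was not among the leading genes of clusters 1 and 12. The share of the T or natural killer-like class was 8.16, 3.16, 3.97 and 3.66 times that of the granulosa-like class, so that the order held in 4 of 4 goats and the ranges were far apart. Blood endothelial-like nuclei, marked by FLT1, VWF and CDH5, stood at 2.57%, 4.05%, 3.23% and 4.51%. They were above lymphatic endothelial-like nuclei, marked by PROX1 and FLT4, in 4 of 4 goats, by 1.19 to 1.98 times. Macrophage-like nuclei, marked by C1QA, CD163 and MSR1, stood at 2.55%, 4.43%, 3.13% and 3.18%. Progenitor-side granulosa-like nuclei ranged from 0.608% in Du'an replicate 1 to 3.02% in Du'an replicate 2. They were above the granulosa-like class in 4 of 4 goats, by 1.06 to 2.42 times. At the coarser clustering the progenitor-side class held 7135 nuclei. Its share with all goats pooled was then 0.891%, below granulosa-like clusters at 1.21% and 0.975%, so this order depended on the clustering.

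Several neighbours in this order did not differ beyond their spread. T or natural killer-like nuclei were above blood endothelial-like nuclei in 2 of 4 goats, progenitor-side granulosa-like nuclei above pericyte-like nuclei in 1 of 4, and pericyte-like above smooth muscle-like nuclei in 2 of 4. Smooth muscle-like nuclei were above granulosa-like nuclei in 3 of 4 goats, by a mean of 0.392 percentage points with an SD of 0.390. Epithelial-like nuclei held rank 3 to 5 of 14 classes and clusters in 3 goats but rank 13 in Nubian replicate 2, which held 395 of the 538 such nuclei at 0.868%. T or natural killer-like nuclei held rank 1 in Du'an replicate 1 and rank 2 in both Nubian goats, but rank 6 in Du'an replicate 2. In that goat macrophage-like nuclei held rank 2 and epithelial-like nuclei rank 3.

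The counts per nucleus followed a partly different order. Ciliated-like nuclei, from 2 goats, held the most, a mean of 212 UMIs of the 10 genes. T or natural killer-like nuclei held 118, blood endothelial-like nuclei 116, epithelial-like nuclei 115 and macrophage-like nuclei 112. Progenitor-side granulosa-like nuclei held 105, with an SD of 83.3 over 4 goats. Theca-like nuclei held 80.0, lymphatic endothelial-like nuclei 74.5 and fibroblast-like nuclei 64.5. Granulosa-like nuclei held 54.4, pericyte-like nuclei 37.8 and smooth muscle-like nuclei 33.4. Granulosa-like nuclei were therefore lower in the share than smooth muscle-like nuclei but higher in the count, and their median depth was 3573 to 5892 UMIs per nucleus against 1525 to 1998. In several classes the share fell as depth rose. It went from 2.11% in granulosa-like nuclei of under 1000 nuclear-encoded UMIs to 0.821% in those over 4000 (means over 4 goats), and from 5.73% to 3.02% in T or natural killer-like nuclei. Those UMIs are most of the total that divides the share, so part of the fall is built in. The UMIs of the 10 genes per nucleus rose over the same bins, from 17.0 to 68.2 and from 49.1 to 193. Theca-like nuclei stood at 2.88% at 1000 to 2000 UMIs (2 goats) and 4.39% over 4000 (1 goat). Among nuclei over 4000 UMIs, T or natural killer-like, blood endothelial-like and macrophage-like nuclei stood close together at 3.02%, 3.04% and 3.06%, so that the T or natural killer-like class was no longer the highest, and smooth muscle-like nuclei stood at 1.04%. In macrophage-like nuclei the share stayed between 3.06% and 3.85% over the 4 bins.

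**Figure D3:**
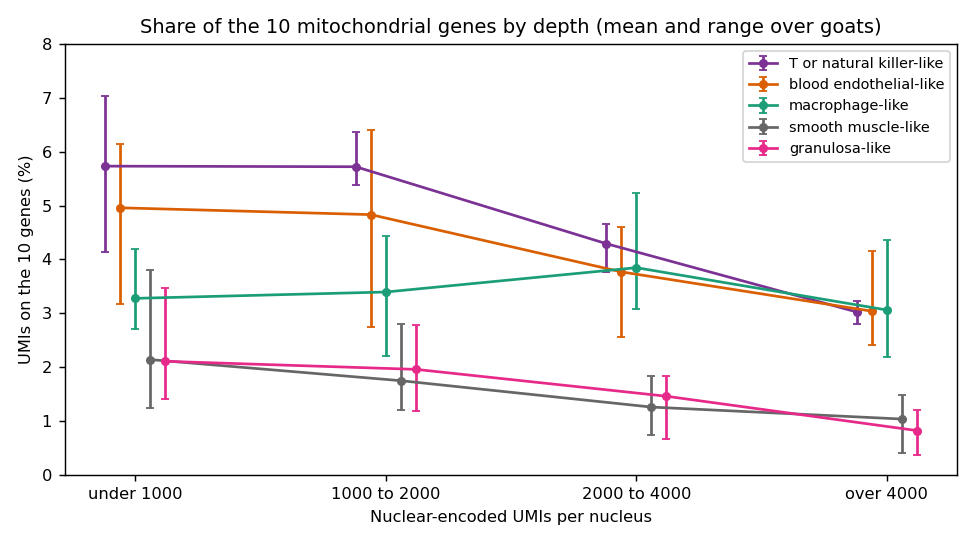
Share of UMIs on the 10 genes (percent) against the number of nuclear-encoded UMIs per nucleus in 4 bins, for 5 classes; points are means over goats with at least 20 nuclei in the bin and bars run from the lowest to the highest goat. The share falls from the shallowest to the deepest bin in 4 classes and changes little in macrophage-like nuclei, and granulosa-like and smooth muscle-like nuclei lie below the other 3 classes in every bin.

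Classes also held clusters that differed. Among granulosa-like nuclei, cluster 12 stood at 0.944%, 2.58%, 2.44% and 3.04% (Du'an replicate 1, Du'an replicate 2, Nubian replicate 1, Nubian replicate 2), above cluster 1 of the same goats at 0.380%, 1.17%, 1.18% and 0.978%. Cluster 3 stood at 1.08% in Nubian replicate 1, its main source, and cluster 10 at 0.732% in Du'an replicate 2. Among macrophage-like nuclei, cluster 14, led by VSIG4 and MSR1, stood above cluster 15, led by C1QA and C1QB, in 3 of 4 goats (2.64% against 2.25%, 4.71% against 2.71% and 4.03% against 2.49%) and below it in Nubian replicate 1 (3.08% against 3.38%). The share of UMIs on 82 cytoplasmic ribosomal protein genes, another RNA that is kept outside the nucleus, was highest in cluster 9 (5.18%), T or natural killer-like nuclei (1.77%) and macrophage-like nuclei (1.18%), and its part in the order of the classes was not tested.

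UMIs were summed for every goat and class, and the level of each gene in a class was compared with its mean level in the remaining classes in a model with a term for the goat (edgeR's quasi-likelihood test, adjusted over 14267 genes). Of 120 tests, 26 called a gene higher and 14 called it lower. The classes were formed from other genes of the same nuclei.

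In granulosa-like nuclei all 10 genes were lower, with log2 fold changes from -1.43 (ND4L) to -0.95 (ND6) and a median of -1.19, where 15.6% of all genes were called lower and the median of all genes was 0.08. COX3, the third core subunit of cytochrome c oxidase, stood at 1715 CPM in Du'an replicate 1, 5002 in Du'an replicate 2, 4114 in Nubian replicate 1 and 4078 in Nubian replicate 2. Its values in T or natural killer-like nuclei of the same goats were 12881, 14898, 15802 and 14554 CPM, and the lowest of these was above the highest granulosa-like value. The log2 fold change of COX3 in granulosa-like nuclei was -1.12 ± 0.29 (SE, adjusted p = 0.0017). ND5, a proton-pumping core subunit of complex I, had the smallest adjusted p, 0.000249, at a log2 fold change of -1.24 ± 0.27. It stood at 104 CPM in Du'an replicate 1, 230 in Du'an replicate 2, 234 in Nubian replicate 1 and 184 in Nubian replicate 2. ND6, the gene of the opposite strand, stood at 6.31, 11.5, 18.1 and 9.98 CPM, and its log2 fold change was -0.95 ± 0.28 (adjusted p = 0.0057). The lower level was shared by subunits of complexes I, III and IV and by both strands. In progenitor-side granulosa-like nuclei only ND3 was called lower (-0.75 ± 0.29, adjusted p = 0.0435) and 11.7% of all genes were. That count became 6 without Du'an replicate 2 and 0 without any 1 of the other 3 goats. It was 5 at the coarser clustering, 6 with DESeq2, 4 with no limit on mitochondrial UMIs and 3 with no filter on low counts. It was 0 when nuclei were named by a marker gate and 0 without the term for the goat.

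In T or natural killer-like nuclei 9 of the 10 genes were higher, beside 28.7% of all genes. ND3, a small core subunit of complex I, rose most. It stood at 2498 CPM in Du'an replicate 1, 3053 in Du'an replicate 2, 2596 in Nubian replicate 1 and 2513 in Nubian replicate 2, at a log2 fold change of 1.46 ± 0.24 (adjusted p = 2.45e-06). ND2 stood at 4416, 5474, 4941 and 4282 CPM (1.40 ± 0.23), and ND5 at 1097, 826, 1091 and 1164 CPM (1.36 ± 0.22). The 4 goats lay close together for these genes, unlike in granulosa-like nuclei. The other 6 genes called had log2 fold changes from 0.77 (CYTB) to 1.14 (ND1). ND6 was not called (0.50, adjusted p = 0.17).

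Blood endothelial-like nuclei had 7 genes higher (17.1% of all genes were), led by ND1 at 1.02 ± 0.25 (adjusted p = 0.00151). ND1 stood at 1813 CPM in Du'an replicate 1, 2783 in Du'an replicate 2, 2325 in Nubian replicate 1 and 3497 in Nubian replicate 2. COX1, ND5 and ND6 were not called, at 0.58, 0.58 and 0.47. Macrophage-like nuclei had 6 higher (30.3% of all genes were): ND1, COX1, CYTB, COX3, ND2 and ND5, from 0.57 to 0.81. COX1, the catalytic subunit of cytochrome c oxidase, had the smallest adjusted p there (0.00508) and stood at 872, 1496, 985 and 820 CPM in the same order of goats. ND3 and ND4L, among the highest in other classes, were at 0.33 and 0.24 in macrophage-like nuclei and were not called. Without Du'an replicate 1 the macrophage-like count was 3. It was 4 at the coarser clustering, 1 when nuclei were named by a marker gate in place of clusters, and 7 with no limit on mitochondrial UMIs. Ciliated-like nuclei, from 2 goats only, had 4 higher (16.8% of all genes were): ND4L, ND3, ND2 and ND5. ND4L stood at 183 CPM in Du'an replicate 2 and 298 in Nubian replicate 2 there. The ciliated-like count was 2 without Du'an replicate 1, 2 without Nubian replicate 1, and was not fitted without either of the goats that held the class.

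Smooth muscle-like nuclei had 3 genes lower, ND3, ND2 and ND4, at -0.95, -0.80 and -0.78, where 5.14% of all genes were lower. Without Du'an replicate 1, without Du'an replicate 2 or at the coarser clustering, 0 of the 10 were called in this class, 1 was without Nubian replicate 2, and 9 were with no limit on mitochondrial UMIs or with DESeq2. Epithelial-like, fibroblast-like, lymphatic endothelial-like, pericyte-like and theca-like nuclei had 0 genes called in either direction by edgeR, while 24.2%, 8.5%, 22.5%, 10.6% and 17.6% of all genes were called there, in the same order of classes. At an unadjusted p under 0.05, 8 of the 10 were lower in pericyte-like nuclei, where 22% of all genes passed in either direction, and 0 passed in the other 4 classes, where 19.7 to 34.2% of all genes did. Without Nubian replicate 1, 3 genes were called lower in pericyte-like nuclei, and without Nubian replicate 2, 3 were called higher in epithelial-like nuclei. Theca-like nuclei, which make the steroid precursors for granulosa cells, had log2 fold changes from -0.50 to 0.55. Without the term for the goat, calls fell to 1 gene in blood endothelial-like and 1 in macrophage-like nuclei, against 8 in T or natural killer-like and 10 in granulosa-like nuclei.

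**Figure D4:**
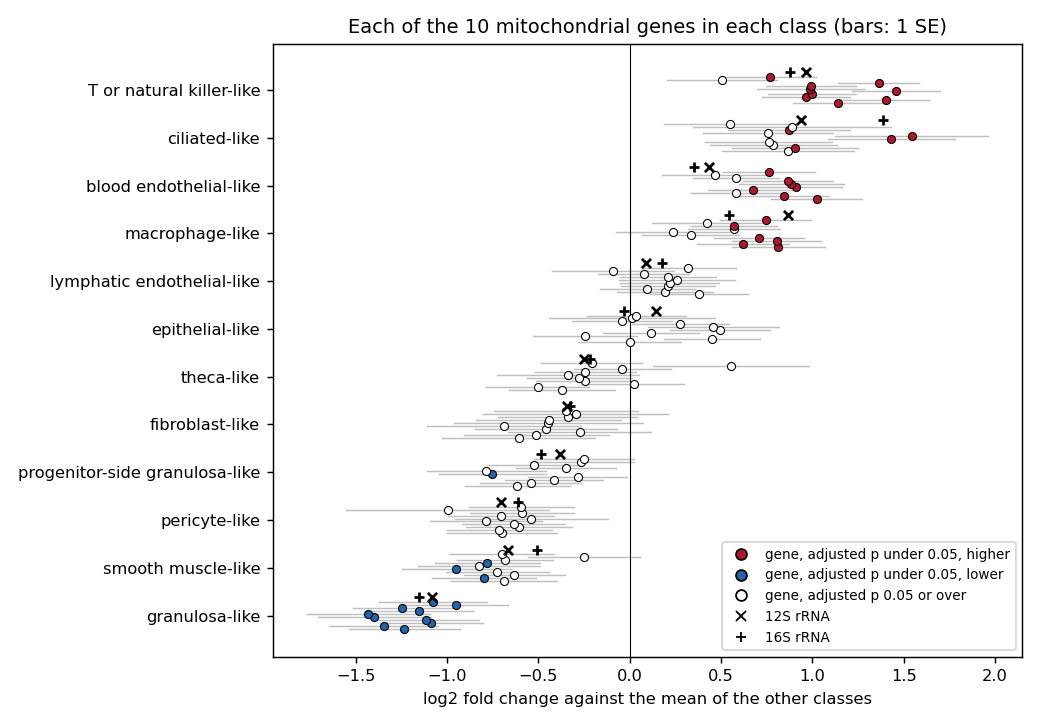
Log2 fold change of each of the 10 genes in each class relative to its mean in the remaining named classes, with a bar of 1 SE. Red points were called higher and blue points lower at an adjusted p under 0.05 (edgeR), and crosses show the 12S and 16S rRNA. All 10 points are blue in granulosa-like nuclei and 9 of 10 red in T or natural killer-like nuclei, while the points run from -0.50 to 0.55 in theca-like and from 0.55 to 1.54 in ciliated-like nuclei.

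The mitochondrial rRNAs, which are the RNAs of the mitochondrial ribosome and were not used to choose the genes, moved to the same side. The 12S rRNA was called lower in granulosa-like nuclei by edgeR, at -1.08 ± 0.28 on the log2 scale with an adjusted p of 0.00144, and the 16S rRNA likewise, at -1.15 ± 0.26 with an adjusted p of 0.000354. In T or natural killer-like nuclei they were higher by 0.96 ± 0.23 and 0.87 ± 0.22, in macrophage-like nuclei by 0.87 ± 0.23 and 0.54 ± 0.22, and in ciliated-like nuclei by 0.94 ± 0.33 and 1.38 ± 0.29, all with an adjusted p under 0.05. In blood endothelial-like nuclei they were not called, at 0.44 and 0.35. The 22 mitochondrial tRNA features had 0 UMIs in all libraries.

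The mix within the 10 genes was compared between classes as well. For COX3 the mean over goats ran from 34.1% of the UMIs of the 10 genes (blood endothelial-like) to 37.98% (progenitor-side granulosa-like) over the 10 classes held by all 4 goats. Among those classes, T or natural killer-like nuclei had the highest share of ND2 (11.6 ± 1.58%, against 8.14 ± 0.857% in granulosa-like nuclei, SD, n = 4 throughout). They were also highest for ND3 (6.49 ± 0.902% against 4.23 ± 0.690%) and ND5 (2.53 ± 0.369% against 1.93 ± 0.247%). CYTB was lowest there (18.8 ± 1.85% against 23.3 ± 1.39%). Epithelial-like nuclei had 10.8 ± 2.55% ND2, and theca-like nuclei 2.47 ± 0.901% ND5. Ciliated-like nuclei, from 2 goats, had 11.0% ND2, 7.47% ND3, 1.95% ND5 and 18.1% CYTB. These shares of the mix were not tested. For COX3 and ND4, the SD between goats within a class (2.39 and 2.33 percentage points) was larger than that between classes within a goat (1.41 and 0.815), and the same held for CYTB, ND5 and ND4L. The reverse held for ND1 (0.505 between goats against 0.688 between classes), ND2 (1.204 against 1.286), COX1 (0.279 against 0.355) and ND3 (0.757 against 0.965). For ND6 the SDs were nearly equal (0.0975 against 0.0976).

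Nuclear-encoded respiratory genes were described from lists of complex I, II and V genes. Among these complexes only complex I holds products of the 10 genes. The lists for complexes III and IV could not be used. In macrophage-like nuclei 35 of 37 complex I genes, 4 of 4 complex II genes and 17 of 17 tested complex V genes were higher, at median log2 fold changes of 1.52, 1.11 and 1.86 against 0.60 for the 10 mitochondrial genes and 0.04 for all genes. NDUFB11, an accessory subunit of complex I, was at 2.98 ± 0.24 (edgeR, adjusted p = 3.81e-14), and ATP5MC3, which encodes the membrane ring subunit of the ATP synthase, at 3.51 ± 0.23. Without 1 goat the counts were 25 to 34 for complex I and 16 for complex V. In T or natural killer-like nuclei 27 of 37 complex I genes and 14 of 17 complex V genes were higher and 0 lower, where 28.7% of all genes were higher. Their medians were 0.99 and 1.27 beside 1.00 for the mitochondrial genes. Of 4 complex II genes 1 was higher and 1, SDHB (-0.41 ± 0.18), was lower, at a median of 0.25. Without Nubian replicate 2, 16 of 36 complex I genes were higher. In blood endothelial-like nuclei 5 and 3 were higher, near the 17.1% of all genes, among them NDUFB10 (1.37 ± 0.36) and ATP5MC2 (1.21 ± 0.25), with medians of 0.17 and 0.46 beside 0.80 for the mitochondrial genes. Without the term for the goat 2 complex I genes were higher there, and the complex V count was 2 without Du'an replicate 2 and 1 without Nubian replicate 2. The macrophage-like and T or natural killer-like classes were also those with the highest share of ribosomal protein genes among the named classes.

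In granulosa-like nuclei the nuclear-encoded genes moved both ways, where 24.9% of all genes were called higher and 15.6% lower. Of 37 complex I genes, 4 were higher, among them NDUFS4 (1.62 ± 0.13) and NDUFS1 (0.41 ± 0.15), and 7 were lower, among them NDUFB11 (-1.26 ± 0.28) and NDUFA1 (-1.05 ± 0.28), with a median of -0.10 beside -1.19 for the mitochondrial genes. Of 17 complex V genes 2 were higher and 4 lower. These counts moved when 1 goat was left out: complex I had 1 higher and 9 lower without Du'an replicate 2, 3 lower without Nubian replicate 1 and 2 lower without Nubian replicate 2, and complex V had 0 higher without Du'an replicate 2, 1 higher and 1 lower without Nubian replicate 1 and 2 lower without Nubian replicate 2. Of 12 tested genes that copy and transcribe mitochondrial DNA, 3 were higher, at the share of all genes, and 1 was lower. MTERF3 (0.92 ± 0.21), MGME1 (0.89 ± 0.27) and TFB2M, a transcription initiation factor (0.67 ± 0.16), were those higher, and POLG2 (-0.52 ± 0.19), the accessory subunit of the mitochondrial DNA polymerase, was lower. Of 16 tested genes of mitochondrial RNA processing and stability 6 were higher and 0 lower, among them FASTKD2 (0.84 ± 0.20), the helicase SUPV3L1 (0.70 ± 0.15) and LRPPRC (0.54 ± 0.18), which protects mitochondrial messenger RNA. That count was 2 of 14 tested without Du'an replicate 2. The call of POLG2 was lost in 3 of the 4 fits without 1 goat and held without Nubian replicate 1. Of 9 regulators of mitochondrial biogenesis, PPARGC1A (1.07 ± 0.33) and PPRC1 (0.67 ± 0.22) were higher and ESRRG (-2.93 ± 0.53) and PPARGC1B (-1.17 ± 0.32) lower. The count of higher regulators was 4 without Du'an replicate 1 and 1 without any 1 of the other 3 goats, and the count of lower ones was 1 without Nubian replicate 1. PPARGC1A, a coactivator of respiratory genes, was lower in macrophage-like nuclei (-3.75 ± 0.87, not called without Du'an replicate 2) and T or natural killer-like nuclei (-1.91 ± 0.63), and its relative PPARGC1B was higher in macrophage-like nuclei (2.51 ± 0.25).

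The second question was whether Nubian and Du'an goats differed in these genes within a cell type. By edgeR on the sums of each class, 0 of the 98 tests of a gene in a class were called, and 0% of all genes were called in any of the 10 classes held by all 4 goats. At an unadjusted p under 0.05, 4 of the 10 genes passed in smooth muscle-like nuclei, beside 3.81% of all genes, 2 of 9 tested in pericyte-like nuclei, beside 4.99%, and 0 in the other 8 classes, beside 1.26 to 12.4%. DESeq2 called 0 as well. In simulated granulosa-like counts, the edgeR test between breeds recovered 5% of genes changed 2-fold and 93% of those changed 4-fold. The spread in the simulation was set at the same value for every gene and not taken from the goats. In granulosa-like nuclei COX3 stood at 1715 and 5002 CPM in the 2 Du'an goats, so these percentages need not hold for the 10 genes. The 0 calls therefore do not show that the breeds had equal levels. In smooth muscle-like nuclei the share of UMIs on the 10 genes was 0.897% and 1.197% in the Du'an goats and 2.05% and 1.43% in the Nubian goats, and the gene fold changes (Nubian minus Du'an, log2) ran from 0.20 (ND4L) to 1.33 (ND6). In T or natural killer-like, lymphatic endothelial-like, pericyte-like and smooth muscle-like nuclei both Nubian goats had a higher share than both Du'an goats, while in the other 6 classes the breeds overlapped. The Nubian minus Du'an difference was 0.484, 1.14, 0.931 and 0.694 percentage points in those 4 classes. In granulosa-like nuclei it was 0.287 points, with Du'an replicate 1 below and Du'an replicate 2 above both Nubian goats. The mix of granulosa-like clusters differed between goats, and clusters 3 and 10 held 0 nuclei of Du'an replicate 1. By the median share per nucleus, both Nubian goats were higher in 6 classes, those 4 with granulosa-like and theca-like nuclei, and the breeds overlapped in 4. That median was 0.279% and 0.358% in granulosa-like nuclei of the Du'an goats against 1.04% and 0.470% in those of the Nubian goats, and 0.634% and 0.695% against 1.91% and 1.13% in theca-like nuclei. Only 25 theca-like nuclei came from Du'an replicate 1 and 37 pericyte-like nuclei from Nubian replicate 2. The classes share the same 4 libraries and are not separate evidence. With 2 goats against 2, an exact permutation p cannot fall below 0.333. How often other genes separated the breeds in this way was not counted. A test of whether the breed difference varied between classes called none of the 10 genes (0 of 12601 genes called by edgeR's quasi-likelihood test of the interaction).

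The rRNAs set against the 10 genes did not overlap between the breeds, although neither rRNA was called by edgeR in any class. The 16S rRNA gave 63.3 and 72.1 UMIs per 100 UMIs of the 10 genes in the Du'an goats and 33.8 and 43.0 in the Nubian goats, over all kept nuclei. The 12S rRNA gave 40.2, 49.8, 24.1 and 34.4. Both ratios were higher in both Du'an goats than in both Nubian goats in all 10 classes, for example for the 16S rRNA in granulosa-like nuclei, at 64.0 and 72.6 against 33.6 and 37.0. The classes of 1 goat share a library and are not separate evidence, and 2 goats against 2 cannot give an exact permutation p below 0.333. How often ratios of other features separated the breeds in this way was not counted, so this is a description.

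COX2, ATP6 and ATP8, which lie next to each other on the genome between COX1 and COX3, were counted in 3 libraries and almost absent from Du'an replicate 2. COX2 stood at 683 CPM in Du'an replicate 1, 2.02 in Du'an replicate 2, 1369 in Nubian replicate 1 and 1114 in Nubian replicate 2. ATP6, a proton channel subunit of the ATP synthase, stood at 1362, 2.02, 2591 and 2562 CPM. ATP8 stood at 12.1, 0, 16.2 and 9.11 CPM, and its 0 of 47135062 UMIs in Du'an replicate 2 allows up to 0.0636 CPM by counting error alone. COX3, the next gene, was highest in that library. These values led to the choice of genes and are not a result.

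The nuclear feature whose level followed the 10 genes most closely over the 44 sums of a goat and class was LOC106503794, which the RefSeq table of assembly ARS1.2 lists as a pseudogene on chromosome 1. Its Pearson r with their summed level (log2 CPM + 1, centred within goat) was 0.972, against 0.761 for UBB, 0.760 for LOC102181202 and 0.748 for TAGLN2, the next of 9475 genes. The sums share libraries, so this is a description. As a feature of chromosome 1 it was not left out of the genes open to clustering or of the nuclear-encoded UMIs. LOC106503794 stood at 1147 CPM in Du'an replicate 1, 9471 in Du'an replicate 2, 2276 in Nubian replicate 1 and 2220 in Nubian replicate 2. It was highest in the library in which COX2, ATP6 and ATP8 were nearly uncounted. Per 100 UMIs of the 10 genes it gave 14.6, 46.3, 13.5 and 15.04, and COX2, ATP6 and ATP8 together gave 26.3, 0.0197, 23.6 and 24.96. The sum of the 4 features was 40.9, 46.3, 37.1 and 40.0. In granulosa-like nuclei the sums were 42.1, 44.5, 37.1 and 40.2, and in T or natural killer-like nuclei 41.2, 45.2, 36.3 and 38.6. Why the features traded places was not tested. Without Du'an replicate 2, all 10 genes were still called in granulosa-like nuclei, 9 each in T or natural killer-like nuclei and in blood endothelial-like nuclei, and 6 in macrophage-like nuclei.

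**Figure D5:**
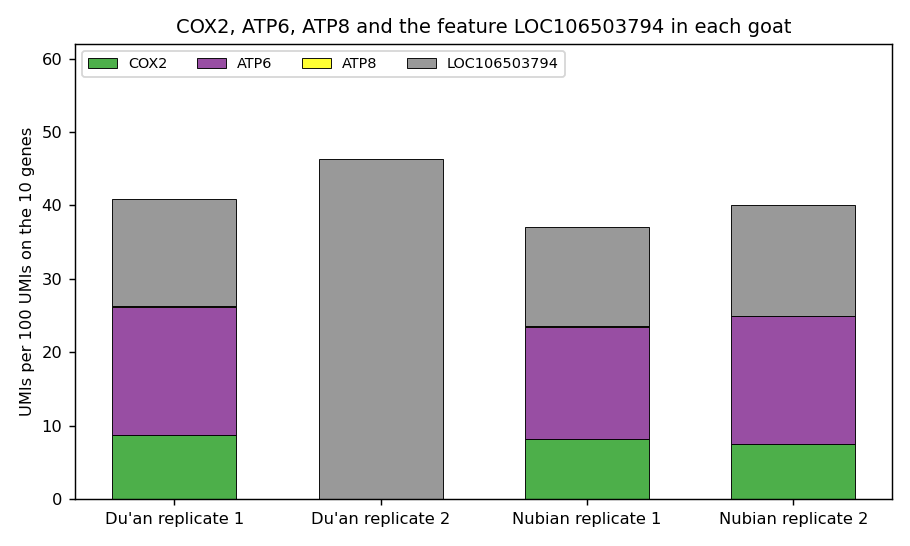
UMIs of COX2, ATP6, ATP8 and LOC106503794 per 100 UMIs of the 10 genes in all kept nuclei of each goat, as stacked bars from 0. In Du'an replicate 2 the bar is almost wholly LOC106503794 (46.3), while in the other 3 goats LOC106503794 gives 13.5 to 15.04 and the 3 genes 23.6 to 26.3.

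The nuclei removed for more than 20% mitochondrial UMIs were not spread evenly. Within the limits on UMIs and genes they numbered 110 in Du'an replicate 1, 406 in Du'an replicate 2, 209 in Nubian replicate 1 and 380 in Nubian replicate 2. They were 22.1% of cluster 7, 10% of cluster 9, 6.62% of ciliated-like, 4.55% of macrophage-like and 3.79% of theca-like nuclei, but 0.466% of granulosa-like and 0.290% of smooth muscle-like nuclei. With them kept, the macrophage-like share was 4.52% and the theca-like share 3.73%. The T or natural killer-like share then stayed within 1 SD (0.342) of its 4.13%, so the macrophage-like share was above it. The order of these 2 classes thus depended on the limit. The limit counted UMIs of all 13 mitochondrial protein genes, with COX2, ATP6 and ATP8 among them. In kept nuclei these genes gave 26.3, 0.0197, 23.6 and 24.96 per 100 UMIs of the 10 genes, in the same order of goats. The limit was therefore less strict on the 10 genes in Du'an replicate 2. What this did to the removal count and class shares of that goat was not tested.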

How the data were processed

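The deposited files held UMI counts per gene and barcode for each of 4 libraries, which the authors made with Cell Ranger 5.0.0 (Chromium 3′ kit) per the labels, although the headers of all 4 matrices name version 3.1.0, and analysed in Seurat. The goat genome is given by a link to NCBI and not by a build name, and whether all libraries were counted against 1 reference was not tested. The counts were used as deposited. Nuclei within 2 SD of their library's mean UMIs and genes and with at most 20% mitochondrial UMIs were kept; 20 nuclei were required per goat and class. Clustering (scanpy 1.11.5, Leiden, 2000 variable genes, 30 components) used no mitochondrial gene and no marker. The study regressed out variation from mitochondrial expression and does not say whether mitochondrial genes were among those it clustered on. A cluster was named when at least 3 markers of a list reached 10 CPM and a log2 fold change of 1 against the median of the other clusters; the limits were chosen with values known, so class shares can differ from the study's. Clusters under 0.5 of their libraries' median depth whose top 10 genes held no marker stayed unnamed.

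Sums were tested with edgeR 4.0.16 (quasi-likelihood, TMM, Benjamini-Hochberg over all genes, limit 0.05), with DESeq2 1.42.0, other filters, library sizes, resolutions, a marker gate and left-out goats as alternatives. Between breeds the main fit had no block, since the same replicate number does not mark a shared animal or day. The deviations of goats of the same number had no steady sign (r over genes from -0.279 in granulosa-like to 0.261 in epithelial-like nuclei, 10 classes). With crossed numbers r is the same value with the opposite sign, so r alone cannot show whether goats were paired. The 2 further tables with fold changes and p-values of the authors' own comparisons were not used. All 10 genes are named with their values; the 5 genes most like them, of which 1 is not reported here, and up to 4 genes per list and direction are named by size. The genes and lists were chosen with earlier results of these data known. Lists of complex III (0 of 9 symbols found), complex IV (1 of 14) and nuclear-retained RNA (0 of 4) could not be used. The tests were tried on simulated counts first. PCR and capture errors are outside any counting limit given.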

Additional observations from a re-analysis of the deposited data

Results flagged for a closer look

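Over the 4 goats, 27 sets of values were checked for a goat far from the others, and 6 were flagged; chance flags about 1 in 20. In granulosa-like nuclei the share of UMIs on the 10 genes was 0.469% in Du'an replicate 1, against 1.13 to 1.25% in the other 3 goats. In pericyte-like nuclei it was 2.80% in Nubian replicate 1, against 1.11 to 1.35%. Clusters 3 and 10 of the granulosa-like class held 0 nuclei of Du'an replicate 1. ND4 stood at 1284 CPM over all kept nuclei of Du'an replicate 1, against 2613 to 2672 in the others. The 16S rRNA stood at 14750 CPM in Du'an replicate 2, against 4955 to 6346. LOC106503794 stood at 9471 CPM in Du'an replicate 2, against 1147 to 2276, and at 46.3 UMIs per 100 UMIs of the 10 genes, against 13.5 to 15.04. No cause was tested for these values.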

How the results depend on the processing

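The 26 calls of a gene higher in a class became 12 with no replicate block for the goat and 18 to 24 without 1 goat. The 14 calls of a gene lower became 23 with no mitochondrial limit, 24 with no filter on low counts, 25 with DESeq2 and 9 to 16 without 1 goat, with 9 without Du'an replicate 1. Under the other alternatives both counts stayed within 1.5 times, and no call of a single gene changed direction under any of them. Of the 40 calls, 22 kept their adjusted p with no replicate block and 27 without Du'an replicate 1. Dropping the ciliated-like and fibroblast-like classes, added after seeing the data, gave 25 higher and 14 lower in 10 classes.

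Between breeds, 0 calls became 4 higher in Nubian goats with no filter on low counts, ND1, COX1, ND4 and CYTB in smooth muscle-like nuclei, and 0 to 1 lower without 1 goat, ND4L in epithelial-like nuclei without Nubian replicate 1, which leaves 1 Nubian goat assumed to vary like the Du'an goats. The replicate block called 0 higher and 0 lower, and so did the crossed numbers, added because goats of the same number deviated apart in granulosa-like nuclei (r = -0.279).

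Of 123 alternative values of a class share, 114 stayed within 1 SD. The median over nuclei gave 0.537% in granulosa-like, 2.39% in macrophage-like, 1.09% in theca-like and 2.10% in fibroblast-like nuclei. With no mitochondrial limit the share was 4.52% in macrophage-like, 3.73% in theca-like and 2.63% in fibroblast-like nuclei. The marker gate gave 3.11% in fibroblast-like nuclei, and nuclei of at least 2000 nuclear-encoded UMIs gave 3.70% in T or natural killer-like nuclei. The causes were not tested.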

Other observations

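Unnamed clusters held both ends of the range. Cluster 6, with RSPO2 among its leading genes and 1561 and 1367 of its 3010 nuclei from Du'an replicate 1 and Nubian replicate 2, had 0.329%, 0.212%, 1.31% and 0.593% of UMIs on the 10 genes (Du'an replicate 1, Du'an replicate 2, Nubian replicate 1, Nubian replicate 2). Its median depth was 4868 UMIs. Cluster 9, led by OVN and IGF2 with a median of 815 UMIs, had 3.37%, 5.48%, 5.20% and 3.51%, and cluster 7, with the hemoglobin gene HBBC among its leading genes, 1.57%, 4.31%, 4.45% and 2.48%.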
